A study of Homo sapiens with 6 samples.

Results

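The 49 genes described here encode the proteasome: its core particle, its cap, the activators and the inhibitor that bind the core, and the chaperones that assemble it. They were chosen by name. A gene was taken when its symbol began with PSMA to PSMG and ended in a number, and POMP and ADRM1 were added, which gave 49 of the 17687 genes in the table. By role, 18 genes belong to the core, 21 to the cap, 4 are activators, 1 is an inhibitor and 5 are chaperones of core assembly. The 21 cap genes include 3 chaperones that assemble the base of the cap. RNA was sequenced from KHM-5M cells, a line of anaplastic thyroid cancer, grown in RPMI-1640 with 10% fetal bovine serum. There were 3 groups of 2 libraries: control cells given PBS, cells given sodium selenite (SS), and cells given SS together with N-acetylcysteine (SS+NAC), a thiol antioxidant. Dose and exposure time are not given in the labels. The paper speaks of 2 biological replicates, but the labels do not say that these came from separate cultures, so the p-values measure the spread between these samples, which may be technical.

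The proteasome degrades proteins that carry chains of ubiquitin. Its barrel-shaped core is a stack of alpha and beta rings, with the catalytic sites facing inwards, and its cap holds a ring of ATPases that unfolds substrates, subunits that recognise ubiquitin and a lid that removes it. Interferon-inducible beta subunits can replace the constitutive catalytic ones and alter the peptides offered to MHC class I, and when proteasome activity falls, the transcription factor NRF1 (encoded by NFE2L1) is known to raise the genes of all subunits together.

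The libraries held 17645545 and 22016655 expected counts in control, 23493415 and 23810056 in SS, and 23682740 and 22617180 in SS+NAC. The share of these counts that fell on proteasome genes was 0.725% and 0.746% for control, 0.831% and 0.889% for SS and 0.738% and 0.695% for SS+NAC. Both SS libraries lay above the other 4.

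The label of a thyroid cancer line was checked against markers. PAX8, a thyroid transcription factor, was present at 68.5 and 64.8 FPKM in control cells, 66.4 and 61.6 FPKM after SS, and 65.3 and 65.9 FPKM after SS with NAC, and the keratin genes KRT8 and KRT18 were abundant, at 597 ± 22.3 FPKM (SD, n = 2) and 478 ± 0.601 FPKM (SD, n = 2) in control. Of the other thyroid genes, TG, SLC5A5, FOXE1 and NKX2-1 stayed under 1 FPKM in all 6 libraries, as did the epithelial cadherin CDH1, while EPCAM lay between 2.21 and 3.11 FPKM. Among genes that mark other cell types, PTPRC, CD3E, PECAM1, CDH5 and COL1A2 stayed under 1 FPKM, and CD68 and COL1A1 were present, at 43.6 ± 1.65 FPKM (SD, n = 2) and 111 ± 0.1202 FPKM (SD, n = 2) in control. VIM was more abundant than these, at 3013 and 3196 FPKM in control cells, 3724 and 3922 FPKM after SS, and 3105 and 2887 FPKM after SS with NAC. Of the 8 tested thyroid and epithelial markers, 2 were called higher in SS than in control (all genes 18.6%), KRT8 and KRT18, whose exons overlap. VIM rose by 0.40 ± 0.10 (SE, edgeR adjusted p = 0.00935) on the log2 scale. None of these 3 was called against control with the length offset, at 0.25 ± 0.11 (SE, edgeR adjusted p = 0.177), 0.12 ± 0.10 (SE, edgeR adjusted p = 0.497) and 0.19 ± 0.07 (SE, edgeR adjusted p = 0.144). Against SS+NAC, KRT8, KRT18 and VIM were higher in SS, by 0.65 ± 0.12 (SE, edgeR adjusted p = 0.0023), 0.71 ± 0.12 (SE, edgeR adjusted p = 0.0013) and 0.49 ± 0.10 (SE, edgeR adjusted p = 0.00304), and COL1A1 was lower, at -0.34 ± 0.09 (SE, edgeR adjusted p = 0.00922). With the offset the first 3 remained called against SS+NAC and COL1A1 did not, while PAX8 was higher, by 0.29 ± 0.06 (SE, edgeR adjusted p = 0.0171), and CD68 lower, at -0.33 ± 0.07 (SE, edgeR adjusted p = 0.0187). The part of a change in cell make-up in the results was not tested. In bulk RNA, fewer cells of a type and less RNA per cell cannot be told apart.

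Most proteasome genes were higher after SS. Of the 49 members, 48 had enough counts to be tested and 1, PSMB11, had at most 1 count in a library. With edgeR's quasi-likelihood test and an adjusted p of at most 0.05 as the limit, 37 of the 48 members were called higher in SS than in control, where 18.6% of all 14005 tested genes were called higher, and 1 member was called lower, where the share of all genes was 21.4%. With a Bonferroni correction, which the paper's methods name, edgeR called 0 members in any comparison, beside 0.0928% of all genes higher and 1.48% lower in SS than in control and 0.171% and 1.19% against SS+NAC. At an unadjusted p under 0.05, in either direction, there were 41 members in SS against control (85.4%, all genes 48.8%) and 42 against SS+NAC (87.5%, all genes 50.1%). The median log2 fold change was 0.38 over the 48 members and 0.00 over all tested genes. Against SS+NAC, 40 members were higher in SS (all genes 19.6%) and 1 was lower (all genes 23.1%), with a median of 0.45 against -0.03 over all genes. Both comparisons use the same 2 SS libraries. Between SS+NAC and control, edgeR called 0 members higher and 0 lower (all genes 1.36% and 0.657%), and the median was -0.06 against 0.00 over all genes. In that comparison 1 member had an unadjusted p under 0.05 with edgeR (all genes 16.1%) and 1 with DESeq2 (all genes 8.33%), which also called 0 members (all genes 0.998% higher and 0.765% lower).

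These shares have to be read with transcript length, because the fold change of all genes depended on it. In the shortest of 8 equal classes of length, under 1410 bases, the median log2 fold change of all genes in SS against control was 0.46 and 69.3% of the genes were called higher. In the longest class, from 6097 bases, the median was -0.46 and 63.1% were called lower. Proteasome transcripts were short, with a median of 1455 bases against 3056 bases for all tested genes, and 23 of the 48 members fell in the shortest class. All 23 were called higher there. A length offset was therefore also fitted, which removes, in each library, the smooth trend of log2 level on transcript length. After this step, 4 members were called higher in SS than in control (all genes 4.21%) and 1 was lower (all genes 5.03%), and the median over members was 0.07, against 0.01 over all genes. Against SS+NAC, 6 members were higher in SS with the length offset (all genes 7.03%) and 0 were lower (all genes 7.43%), with 19 members at an unadjusted p under 0.05 (39.6%, all genes 30.8%). Between SS+NAC and control, edgeR with the length offset called 0 members in each direction (all genes 1.35% and 0.664%), and 4 members had an unadjusted p under 0.05 (8.33%, all genes 17.5%). Against control, 11 members had an unadjusted p under 0.05 with the offset (22.9%, all genes 25.4%). Of the tested members, 8.33% were thus higher against control with the offset, and 12.5% against SS+NAC. Both of these counts changed when a library was left out, with the ranges given at the end of the report.

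**Figure D1:**
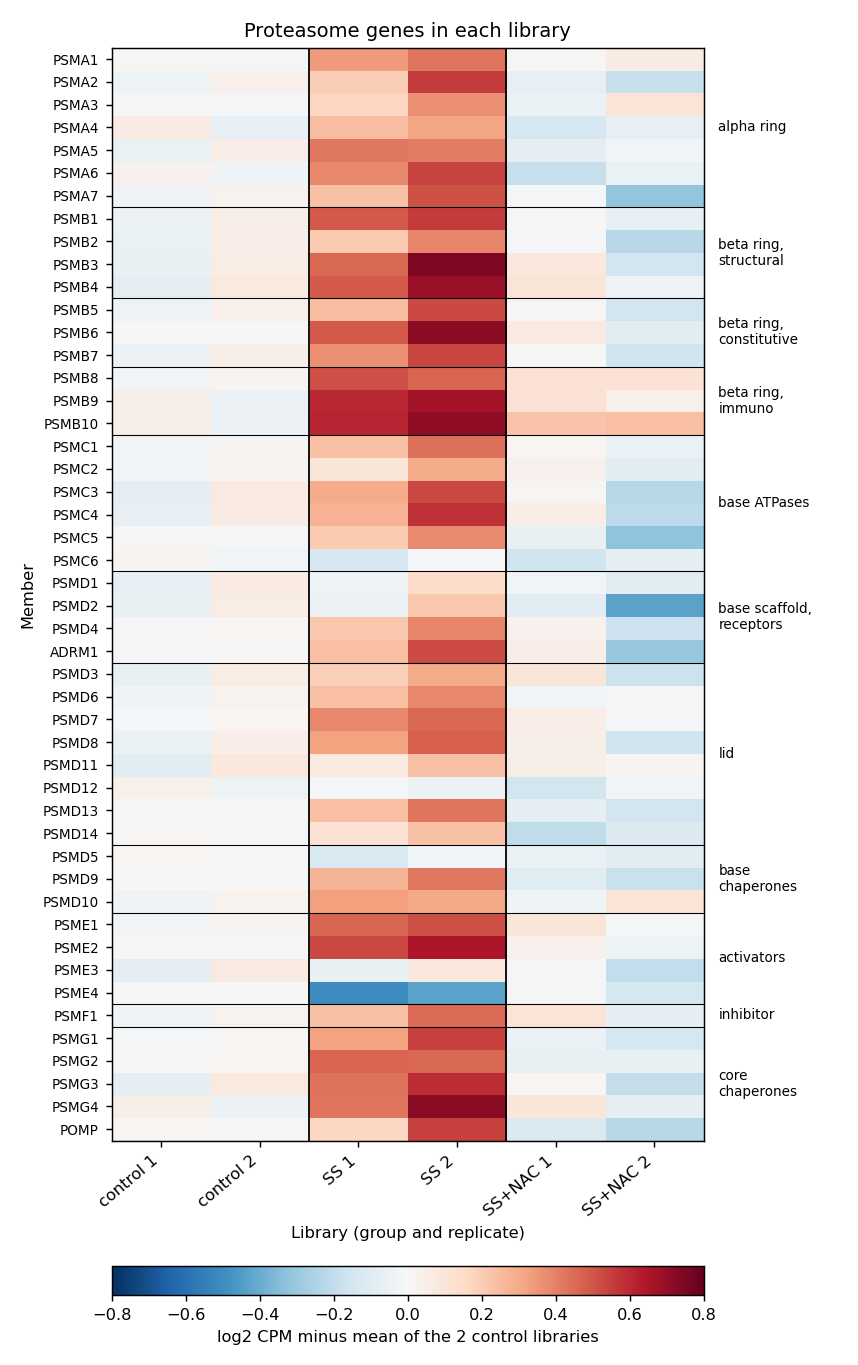
Level of each of the 48 tested proteasome genes in each library as log2 CPM minus the mean of the 2 control libraries (colour), with genes in rows by role and libraries in columns. Both SS columns are red for most genes, the second SS library more than the first, with medians of 0.25 and 0.45, and PSME4 is blue in both SS libraries.

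The library medians differed within the SS group. On the log2 CPM scale, relative to the mean of the control libraries, the median over the 48 members was -0.02 and 0.02 for control, 0.25 and 0.45 for SS and 0.00 and -0.09 for SS+NAC. For the core alone the SS libraries stood at 0.39 and 0.53, for the cap at 0.21 and 0.38, and for the chaperones of core assembly at 0.43 and 0.55. Without SS replicate 2 the count of members called higher against control was 19, and without control replicate 1 it was also 19, so these 2 libraries bear on the count. The shares of all genes called higher were 8.99% and 9.18% in these fits, beside 18.6% with all libraries. Of the 38 members called in either direction, 19 were called whichever library was left out, and all 38 kept the sign of their fold change. PSMA3, PSMC5, PSMD4, ADRM1 and POMP were called in 3 of the 6 fits, and another 14 in 4 or 5. Against SS+NAC, 29 of 41 were called in every fit, and PSMA3 and PSMD3 in 2 of 6.

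Sequences upstream of the gene starts are shown because many members moved together. RefSeq starts on GRCh38.p14 were found for 43 of the 49 members, with 53 windows of 300 bases, each from 250 bases before a start to 50 bases after it. The core of the antioxidant response element, TGACNNNGC, which NRF1 and NRF2 are known to bind, was searched on both strands. It was found in 17 of the 53 windows of members (32.1%), in 13.3% of all 35116 windows and 14.1% of those of tested genes. Matches lay in 3 of 19 core windows (15.8%) and 9 of 23 cap windows (39.1%). For activators, chaperones and the inhibitor they lay in 3 of 4, 2 of 5 and 0 of 2 windows. PSME4, called lower in SS than in control, also held a match. CCAAT, the box bound by NF-Y, was found in 22 of the 53 windows (41.5%) and in 34.6% of all windows, also on both strands. Counted by gene, 16 of 43 members held TGACNNNGC (37.2%), beside 16.1% of all genes with a window and 19.0% of the tested ones. Of these 16 members, 11 were called higher in SS than in control, against 31 of all 43 (all genes 18.6%). The median log2 fold change in SS against control was 0.37 over members with this motif and 0.36 over members without it. A match describes letters only and does not show binding. The following lines give the 250 bases before the start for the 6 members with a TGACNNNGC match that had the highest fold change in SS against control, written from 5′ to 3′ on the strand of the gene, with the match in capitals. They are the windows of PSMB9 at chr6:32853942-32854191 (plus strand), PSMB3 at chr17:38752491-38752740 (plus strand), PSME2 at chr14:24146611-24146860 (minus strand), PSME1 at chr14:24135944-24136193 (plus strand), PSMG2 at chr18:12658488-12658737 (plus strand, the first of 2 listed starts) and PSMG1 at chr21:39183452-39183701 (minus strand). In PSMB9 the match lies on the opposite strand and reads as its reverse complement.
PSMB9: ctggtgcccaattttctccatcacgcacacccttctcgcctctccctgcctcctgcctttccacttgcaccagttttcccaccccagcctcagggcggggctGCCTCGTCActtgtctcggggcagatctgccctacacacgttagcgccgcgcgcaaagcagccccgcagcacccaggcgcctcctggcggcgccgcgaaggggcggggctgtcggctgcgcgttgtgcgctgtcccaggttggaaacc
PSMB3: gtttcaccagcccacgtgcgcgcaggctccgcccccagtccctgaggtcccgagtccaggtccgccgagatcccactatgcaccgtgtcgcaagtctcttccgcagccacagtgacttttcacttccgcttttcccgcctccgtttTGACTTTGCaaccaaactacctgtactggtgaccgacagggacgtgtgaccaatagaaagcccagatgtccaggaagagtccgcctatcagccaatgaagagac
PSME2: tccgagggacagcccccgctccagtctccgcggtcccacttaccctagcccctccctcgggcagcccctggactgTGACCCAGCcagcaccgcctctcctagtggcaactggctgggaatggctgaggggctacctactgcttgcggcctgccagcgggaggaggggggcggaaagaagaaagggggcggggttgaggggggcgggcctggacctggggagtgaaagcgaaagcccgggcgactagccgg
PSME1: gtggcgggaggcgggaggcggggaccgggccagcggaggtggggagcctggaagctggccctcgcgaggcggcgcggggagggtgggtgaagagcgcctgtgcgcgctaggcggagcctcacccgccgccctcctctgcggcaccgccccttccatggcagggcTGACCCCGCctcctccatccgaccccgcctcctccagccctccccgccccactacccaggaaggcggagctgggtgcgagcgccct
PSMG2: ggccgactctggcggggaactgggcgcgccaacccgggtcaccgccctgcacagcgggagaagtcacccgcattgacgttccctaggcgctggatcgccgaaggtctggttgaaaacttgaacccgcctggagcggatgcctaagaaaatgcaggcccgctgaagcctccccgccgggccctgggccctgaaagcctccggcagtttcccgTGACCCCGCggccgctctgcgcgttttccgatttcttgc
PSMG1: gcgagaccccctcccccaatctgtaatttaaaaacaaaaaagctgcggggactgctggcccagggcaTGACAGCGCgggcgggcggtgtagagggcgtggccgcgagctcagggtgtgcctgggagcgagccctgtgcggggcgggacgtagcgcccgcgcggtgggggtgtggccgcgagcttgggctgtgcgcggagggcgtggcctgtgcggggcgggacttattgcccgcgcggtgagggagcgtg

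The alpha ring gates entry to the core. All 7 alpha subunits were called higher in SS than in control (all genes 18.6%), with log2 fold changes from 0.27 to 0.47. In the shortest class of length, which holds PSMA1, PSMA3, PSMA4, PSMA6 and PSMA7, the share of all genes was 69.3%. With the length offset 1 of the ring was called, PSMA5 (all genes 4.21%). PSMA6 had the highest rise of the ring, with 147 and 141 CPM in control cells, 188 and 209.9 CPM after SS, and 127 and 139 CPM after SS with NAC. Its SS libraries lay above the other 4, and the log2 fold change was 0.47 ± 0.08 (SE, edgeR adjusted p = 0.00172) against control and 0.59 ± 0.08 (SE, edgeR adjusted p = 0.000566) against SS+NAC. Neither was called with the length offset, at 0.05 ± 0.08 (SE, edgeR adjusted p = 0.734) and 0.17 ± 0.08 (SE, edgeR adjusted p = 0.168). PSMA3 had the lowest, with 110.1 and 108 CPM in control, 123 and 141 CPM in SS and 105 and 118 CPM in SS+NAC libraries. The first SS library of PSMA3 stood close to the second SS+NAC library, and the fold change of 0.27 ± 0.09 (SE, edgeR adjusted p = 0.0307) changed sign with the length offset, to -0.17 ± 0.08 (SE, edgeR adjusted p = 0.242). Without the offset it ran from 0.17 to 0.37 when a library was left out, with the call in 3 of 6 fits. PSMA7, the most abundant core transcript per length, was measured at 324 and 333 FPKM in control cells, 373 and 424 FPKM after SS, and 328 and 278 FPKM after SS with NAC. In CPM it rose by 0.38 ± 0.11 (SE, edgeR adjusted p = 0.0222) against control, and with the length offset the value was -0.05. Leaving out a library gave PSMA7 log2 values from 0.24 to 0.51 without the offset, called in 4 of 6 fits.

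PSMA5 differed from the rest of the ring in its length. Its transcript had an effective length of 3860.0 bases, where the other 6 alpha subunits lay between 980 and 1457 bases. Levels of PSMA5 were 93.2 and 100.1 CPM in control cells, 129 and 128 CPM after SS, and 91.4 and 95.04 CPM after SS with NAC. Both SS libraries stood apart from the 4 others, and PSMA5 was higher in SS by 0.41 ± 0.07 (SE, edgeR adjusted p = 0.00164). With the length offset the log2 fold change was 0.57 ± 0.07 (SE, edgeR adjusted p = 0.00159) against control and 0.62 ± 0.07 (SE, edgeR adjusted p = 0.000872) against SS+NAC, and PSMA5 was called higher against control whichever library was left out.

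The structural beta subunits complete the inner rings without cutting peptides, and all 4 were called higher in SS than in control (all genes 18.6%). In the shortest class of length, which holds PSMB1, PSMB3 and PSMB4, 69.3% of all genes were called higher. PSMB3 had the highest rise among them, with 152 and 164 CPM in control, 217 and 265 CPM in SS and 168 and 142 CPM in SS+NAC libraries. Its fold change was 0.61 ± 0.11 (SE, edgeR adjusted p = 0.00187) against control on the log2 scale, and 0.11 ± 0.08 (SE, edgeR adjusted p = 0.408) with the length offset. PSMB2, with a transcript of 4765 bases, had the lowest fold change of the 4 and was measured at 273 and 294 CPM in control cells, 328 and 372 CPM after SS, and 281 and 243 CPM after SS with NAC. SS and the other groups did not overlap. The fold change of PSMB2 was 0.30 ± 0.10 (SE, edgeR adjusted p = 0.0267) against control without the offset and 0.57 ± 0.10 (SE, edgeR adjusted p = 0.00764) with it, and against SS+NAC the 2 values were 0.42 ± 0.10 (SE, edgeR adjusted p = 0.00558) and 0.67 ± 0.10 (SE, edgeR adjusted p = 0.00295). Leaving out a library gave PSMB2 log2 values against control from 0.21 to 0.39 without the offset and from 0.45 to 0.67 with it. Not every such fit kept the call. The values of PSMB1 and PSMB4 were 0.52 and 0.59 without the offset and 0.07 and 0.13 with it.

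The constitutive catalytic subunits carry the proteolytic sites of the standard core. PSMB5, the chymotrypsin-like subunit and the main target of bortezomib, stood at 114 and 121 CPM in control cells, 139.6 and 169 CPM after SS, and 118 and 106 CPM after SS with NAC. PSMB6, the caspase-like subunit, had 100.5 and 100.1 CPM in control, 141 and 166 CPM in SS and 105 and 94.8 CPM in SS+NAC libraries, and PSMB7, the trypsin-like subunit, had 219 and 233 CPM in control, 291 and 327 CPM in SS and 226 and 202 CPM in SS+NAC libraries. For each of the 3, both SS libraries lay above the other 4. In the shortest class of length, which holds all 3, 69.3% of all genes were called higher in SS than in control (all lengths 18.6%). The rise in SS against control was 0.39 ± 0.10 (SE, edgeR adjusted p = 0.0101) for PSMB5, 0.61 ± 0.09 (SE, edgeR adjusted p = 0.000743) for PSMB6 and 0.45 ± 0.09 (SE, edgeR adjusted p = 0.00279) for PSMB7. For PSMB5 the fits that left out a library gave log2 values from 0.25 to 0.53, with the call in 4 of 6. The log2 values with the length offset were -0.10, 0.13 and 0.02 and none of the 3 was called by edgeR. The sign for PSMB5 turned with the deposited lengths but not with GENCODE lengths, at 0.05 ± 0.08 (SE, edgeR adjusted p = 0.713).

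The immunoproteasome subunits take the places of the constitutive ones when cells meet interferon. PSMB8, which replaces PSMB5, had 48.02 and 49.6 CPM in control cells, 69.9 and 67.5 CPM after SS, and 52.9 and 52.9 CPM after SS with NAC. PSMB9, which replaces PSMB6, had 26.1 and 24.5 CPM in control, 38.4 and 40.1 CPM in SS and 27.4 and 25.96 CPM in SS+NAC libraries. PSMB10, which replaces PSMB7, had 27.2 and 25.5 CPM in control, 40.3 and 43.2 CPM in SS and 30.9 and 31.1 CPM in SS+NAC libraries. In all 3, SS was above control and SS+NAC with no overlap, and PSMB8 and PSMB10 in SS+NAC lay between control and SS. These 3 also belong to the shortest class of length, where 69.3% of all genes were called higher in SS than in control (all lengths 18.6%). PSMB10 showed the highest fold change of the 48 members in SS against control, 0.66 ± 0.08 (SE, edgeR adjusted p = 0.000301), followed by PSMB9 with 0.64 ± 0.08 (SE, edgeR adjusted p = 0.000381), and PSMB8 had 0.49 ± 0.07 (SE, edgeR adjusted p = 0.000656). Between SS+NAC and control, PSMB10 had 0.23 ± 0.08 (SE, edgeR adjusted p = 0.196), and it was the member with an unadjusted p under 0.05 in that comparison. With the length offset the values in SS against control were 0.10 for PSMB8, 0.21 for PSMB9 and 0.23 ± 0.08 (SE, edgeR adjusted p = 0.0976) for PSMB10, and none of the 3 was called. With GENCODE lengths in the offset, described below, PSMB10 was called higher, at 0.38 ± 0.08 (SE, edgeR adjusted p = 0.00866). Against SS+NAC the offset values were -0.01, 0.13 and -0.01. PSMB8 and PSMB9 lie side by side on chromosome 6, and both share exon sequence with the antisense gene PSMB8-AS1 in GENCODE, so that reads from the 3 genes may not be told apart. PSMB10 overlaps an exon of AC040162.1. PSMB11, the thymus-specific subunit, stood at 0.02 FPKM in 1 SS library and at 0 in the other 5 libraries.

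The balance of immuno to constitutive subunits was compared within libraries, as a ratio of FPKM. PSMB8 over PSMB5 was 0.294 and 0.286 in control, 0.339 and 0.272 in SS and 0.303 and 0.333 in SS+NAC libraries. PSMB9 over PSMB6 was 0.209 and 0.197 in control, 0.2199 and 0.195 in SS and 0.209 and 0.221 in SS+NAC. For these 2 pairs the range of the SS libraries covered the values of control. PSMB10 over PSMB7 was 0.126 and 0.110 in control, 0.140 and 0.133 in SS and 0.138 and 0.155 in SS+NAC, so that control lay below the other groups, and SS and SS+NAC overlapped. With 2 libraries a group, no exact test can reach 0.05, and none was made. In each of the 6 libraries the immuno subunit stayed below its constitutive partner in all 3 pairs. As proteins, translated from GENCODE release 29 transcripts, the partners are close relatives: PSMB8 and PSMB5 share 164 of 251 aligned residues (65.3%), PSMB9 and PSMB6 share 132 of 219 (60.3%) and PSMB10 and PSMB7 share 156 of 273 (57.1%). The other 12 pairs of these 6 proteins share from 28.7% to 38.6%.

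**Figure D2:**
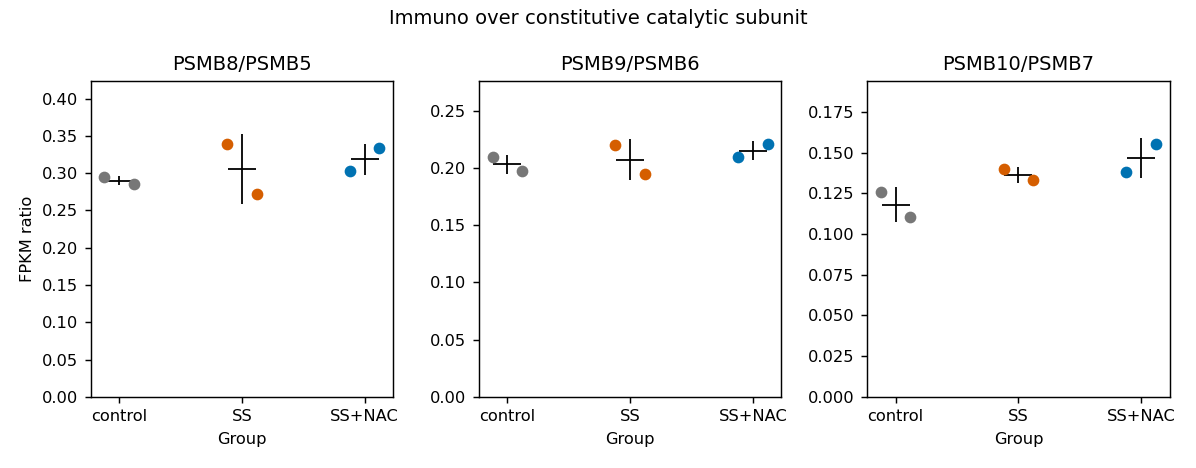
Ratio of the FPKM of each immunoproteasome subunit to that of the constitutive subunit it replaces, by group. Points are the 2 libraries of a group, horizontal marks the mean and bars the SD. Control and SS overlap for PSMB8/PSMB5 and PSMB9/PSMB6, and for PSMB10/PSMB7 control reaches 0.126 at most and the SS libraries stand at 0.133 and 0.140.

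The 6 ATPases of the base thread unfolded proteins into the core. Of these, 4 were called higher in SS than in control (all genes 18.6%), and PSMC2 and PSMC6 were not called. The share of all genes was 69.3% in the length class of PSMC5 and 40.3% in that of PSMC1, PSMC3, PSMC4 and PSMC6. PSMC4 had the highest fold change, with 144 and 157 CPM in control, 182 and 225 CPM in SS and 156 and 130.1 CPM in SS+NAC libraries. Both SS libraries of PSMC4 exceeded the others, and its values were 0.43 ± 0.11 (SE, edgeR adjusted p = 0.0125) against control and 0.51 ± 0.11 (SE, edgeR adjusted p = 0.00525) against SS+NAC. The value against control ran from 0.27 to 0.58 when a library was left out, and was called in 4 of these 6 fits. PSMC4 was not called in either comparison with the length offset, at 0.18 ± 0.10 (SE, edgeR adjusted p = 0.296) and 0.28 ± 0.10 (SE, edgeR adjusted p = 0.0938), nor with GENCODE lengths in it, at 0.20 ± 0.11 (SE, edgeR adjusted p = 0.212) and 0.30 ± 0.10 (SE, edgeR adjusted p = 0.0634). PSMC3, the most abundant ATPase per length, had a log2 fold change of 0.42 against control, and of 0.13 ± 0.09 (SE, edgeR adjusted p = 0.406) with the offset. At the other end stood PSMC6, with 57.1 and 55.5 CPM in control, 51.4 and 55.6 CPM in SS and 50.4 and 53.3 CPM in SS+NAC libraries. Here the groups overlapped, and the log2 fold change was -0.07 ± 0.08 (SE, edgeR adjusted p = 0.486). Given its length of 1623 bases, PSMC6 fell short of genes of like length, and with the length offset it was called lower in SS than in control, at -0.34 ± 0.07 (SE, edgeR adjusted p = 0.0161), but not against SS+NAC, at -0.21 ± 0.07 (SE, edgeR adjusted p = 0.0775). The call of PSMC6 with the length offset was made in 2 of the 6 fits that left out a library.

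The base also holds scaffold subunits and ubiquitin receptors. PSMD1 and PSMD2 are the large scaffolds. PSMD1 was measured at 189 and 208 CPM in control, 194 and 219.8 CPM in SS and 196 and 186 CPM in SS+NAC libraries, which overlapped between groups, with 0.06 ± 0.09 (SE, edgeR adjusted p = 0.612) against control. PSMD2 had the highest mean level per length in the cap, with 236 and 252 FPKM in control cells, 236 and 268 FPKM after SS, and 232 and 192 FPKM after SS with NAC. In the first SS and the second SS+NAC library PSMD8 was higher, at 247 and 193.0 FPKM. Among the libraries of PSMD2 the second of SS+NAC was the lowest, and PSMD2 was called in SS against SS+NAC, at 0.34 ± 0.12 (SE, edgeR adjusted p = 0.0442), but not against control, at 0.09 ± 0.12 (SE, edgeR adjusted p = 0.606). The call was made in 3 of the 6 fits that left out a library, with log2 fold changes from 0.18 to 0.52, and was lost with the length offset, at 0.37 ± 0.12 (SE, edgeR adjusted p = 0.0617), though not with GENCODE lengths in it, at 0.38 ± 0.12 (SE, edgeR adjusted p = 0.0422). The value between SS+NAC and control was -0.25 ± 0.12 (SE, edgeR adjusted p = 0.336). ADRM1, a ubiquitin receptor that also anchors the deubiquitinase UCHL5, had 271 and 275 CPM in control, 323 and 391 CPM in SS and 284 and 221 CPM in SS+NAC libraries. Its SS libraries lay above the others, with a rise of 0.39 ± 0.12 (SE, edgeR adjusted p = 0.027) against control, and the offset value was 0.07. The value without the offset ran from 0.24 to 0.52 when a library was left out, with the call in 3 of 6 fits.

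The lid removes ubiquitin chains before degradation. Of its 8 subunits, 4 were called higher in SS than in control, PSMD6, PSMD7, PSMD8 and PSMD13 (all genes 18.6%). Against SS+NAC 6 were called higher (all genes 19.6%). Against control, the share of all genes was 69.3% in the length class of PSMD6 and 40.3% in that of PSMD7, PSMD8 and PSMD13. PSMD7 had the highest fold change, with 113 and 115 CPM in control cells, 149 and 157 CPM after SS, and 118 and 113 CPM after SS with NAC. Its groups of SS and of the rest did not overlap, and the value was 0.42 ± 0.07 (SE, edgeR adjusted p = 0.0014). The call was lost with the length offset, at 0.16 ± 0.06 (SE, edgeR adjusted p = 0.148), and with GENCODE lengths, at 0.06 ± 0.07 (SE, edgeR adjusted p = 0.569). PSMD14, the deubiquitinase of the lid, had a log2 fold change of 0.18 ± 0.08 (SE, edgeR adjusted p = 0.0867) against control, which missed the limit, and of 0.34 ± 0.08 (SE, edgeR adjusted p = 0.00518) against SS+NAC. The first turned sign with the length offset, to -0.07 ± 0.07 (SE, edgeR adjusted p = 0.556), and the second was not called, at 0.10 ± 0.07 (SE, edgeR adjusted p = 0.325), but with GENCODE lengths it was, at 0.24 ± 0.07 (SE, edgeR adjusted p = 0.0342). PSMD12 had the lowest fold change of the lid, with 93.7 and 88.3 CPM in control, 90.5 and 88.1 CPM in SS and 82.1 and 89.6 CPM in SS+NAC libraries. The libraries overlapped and its value was -0.03 ± 0.08 (SE, edgeR adjusted p = 0.813). With a long transcript of 4455 bases, its offset value turned to 0.20 ± 0.07 (SE, edgeR adjusted p = 0.101) against control and was called against SS+NAC, at 0.28 ± 0.07 (SE, edgeR adjusted p = 0.0237). That call was made in 2 of the 6 fits that left out a library, and was lost with GENCODE lengths, at 0.21 ± 0.07 (SE, edgeR adjusted p = 0.0634). PSMD11, of 3948 bases, is known to aid cap assembly and had 106 and 119 CPM in control, 118 and 132 CPM in SS and 116 and 114 CPM in SS+NAC libraries. Without the offset PSMD11 was not called, at 0.15 ± 0.09 (SE, edgeR adjusted p = 0.18). With the offset it was called in both comparisons, at 0.32 ± 0.09 (SE, edgeR adjusted p = 0.0439) and 0.29 ± 0.08 (SE, edgeR adjusted p = 0.0463), and its control and SS libraries overlapped in CPM. The call against control was made in 2 of the 6 fits that left out a library, and that against SS+NAC in 1. With GENCODE lengths PSMD11 was not called against SS+NAC, at 0.26 ± 0.09 (SE, edgeR adjusted p = 0.0509).

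Among the chaperones that assemble the base, PSMD9 and PSMD10 were called higher in SS than in control (all genes 18.6%) and PSMD5 was not. PSMD9 had 57.7 and 57.8 CPM in control, 69.6 and 77.3 CPM in SS and 54.1 and 50.97 CPM in SS+NAC libraries, with SS above the other groups. It rose by 0.35 ± 0.08 (SE, edgeR adjusted p = 0.00605) against control and by 0.48 ± 0.08 (SE, edgeR adjusted p = 0.00103) against SS+NAC, and with the length offset the values were 0.24 ± 0.07 (SE, edgeR adjusted p = 0.0679) and 0.40 ± 0.07 (SE, edgeR adjusted p = 0.00731). Leaving out a library gave PSMD9 values against control from 0.27 to 0.42 without the offset, and not every such fit kept the call. PSMD5, known to dissociate the cap as well, had 76.2 and 74.5 CPM in control, 69.3 and 74.1 CPM in SS and 72.7 and 70.7 CPM in SS+NAC libraries. Both SS libraries were below control but overlapped SS+NAC, and the log2 fold change was -0.07 ± 0.07 (SE, edgeR adjusted p = 0.463). With the length offset it was 0.03 ± 0.07 (SE, edgeR adjusted p = 0.811) for the deposited lengths and -0.28 ± 0.07 (SE, edgeR adjusted p = 0.0187) for GENCODE lengths, and the latter was a call as lower.

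The activators open the core without ubiquitin or ATP. PSME1 and PSME2 form the interferon-inducible ring that favours antigen processing. PSME1 had 92.2 and 95.3 CPM in control cells, 129.6 and 134 CPM after SS, and 100.4 and 92.97 CPM after SS with NAC, and PSME2 had 101 and 102 CPM in control, 146 and 159 CPM in SS and 104 and 98.7 CPM in SS+NAC libraries. For both, every SS library exceeded every other library, and they rose by 0.49 ± 0.07 (SE, edgeR adjusted p = 0.000755) and 0.59 ± 0.08 (SE, edgeR adjusted p = 0.000379) against control. Both belong to the shortest class of length, where 69.3% of all genes were called higher in SS than in control (all lengths 18.6%). PSME3, the nuclear activator, had 313 and 346 CPM in control, 316 and 349 CPM in SS and 325 and 286 CPM in SS+NAC libraries. Its groups overlapped, with 0.01 ± 0.09 (SE, edgeR adjusted p = 0.92). PSME4, the activator linked to histone degradation, was the member called lower, with 74.98 and 74.9 CPM in control cells, 52.9 and 55.6 CPM after SS, and 74.1 and 67.8 CPM after SS with NAC. The SS libraries lay below the other 4, at -0.47 ± 0.08 (SE, edgeR adjusted p = 0.00116) against control and -0.39 ± 0.08 (SE, edgeR adjusted p = 0.00262) against SS+NAC. PSME4 had the longest transcript of the members, 6975 bases, and with the length offset its values were -0.04 and 0.02, and edgeR called neither. For PSME1 and PSME2 the offset values against control were 0.06 and 0.11.

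PSMF1 binds the core and inhibits it, at least in the test tube. It had 314 and 328 CPM in control, 377 and 438 CPM in SS and 346 and 305 CPM in SS+NAC libraries, with both SS libraries above the rest. PSMF1 rose in SS by 0.35 ± 0.09 (SE, edgeR adjusted p = 0.0149) against control and by 0.33 ± 0.09 (SE, edgeR adjusted p = 0.0183) against SS+NAC. The value against control ran from 0.23 to 0.45 when a library was left out, and not every such fit kept the call. At 3497 bases, PSMF1 was called with the length offset too, at 0.45 ± 0.09 (SE, edgeR adjusted p = 0.0147) and 0.43 ± 0.09 (SE, edgeR adjusted p = 0.0137). Leaving out a library kept that call against control in 3 of 6 fits. Without the offset the value against SS+NAC then ran from 0.21 to 0.43, called in 4 of 6.

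The chaperones of core assembly, PSMG1 to PSMG4 and POMP, guide alpha and beta subunits into rings. All 5 were called higher in SS than in control (all genes 18.6%), with log2 fold changes from 0.37 to 0.58, and than in SS+NAC (all genes 19.6%). In the shortest class of length, which holds PSMG1 to PSMG4, these shares of all genes were 69.3% and 67.8%. PSMG4 had the lowest mean FPKM of them over all libraries, though PSMG3 was lower in the second SS+NAC library. In CPM, PSMG4 had 21.4 and 20.04 in control, 27.8 and 34.2 in SS and 22.1 and 19.7 in SS+NAC libraries. It had the highest fold change against control, 0.58 ± 0.11 (SE, edgeR adjusted p = 0.0027). POMP, which closes the assembly of the core and the most abundant of the 5 per length, had 122 and 119 CPM in control, 135 and 176 CPM in SS and 111 and 103 CPM in SS+NAC libraries. The second SS library of POMP was above the first, both exceeded the other 4 libraries, and the fold change was 0.37 ± 0.11 (SE, edgeR adjusted p = 0.0224). Leaving out a library gave log2 values from 0.17 to 0.55 for POMP, with the call in 3 of 6 fits. After the length offset all 5 stood between 0.02 and 0.07 against control, and none was called (all genes 4.21% higher), with 0 at an unadjusted p under 0.05 by edgeR (all genes 25.4%). With GENCODE lengths 0 were called against control (all genes 6.70% higher), with 1 at an unadjusted p under 0.05 (all genes 32.0%). Against SS+NAC 3 were called higher, PSMG1, PSMG3 and POMP (all genes 10.95%).

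**Figure D3:**
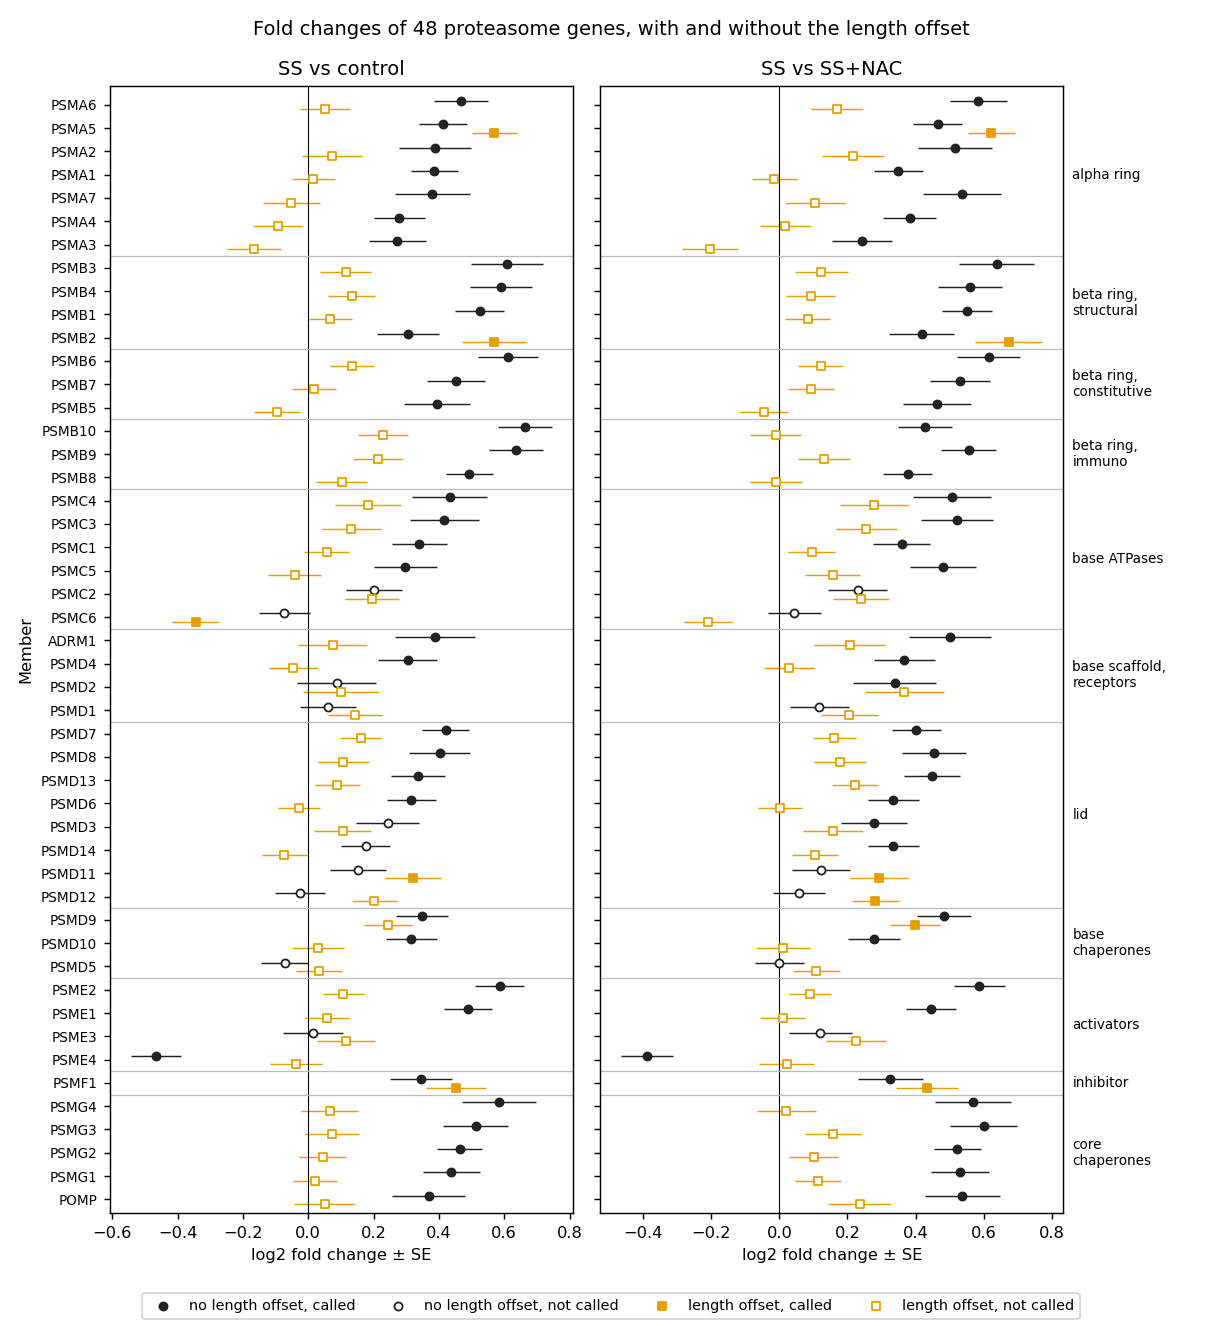
Log2 fold changes with SE of the 48 tested members by role, in SS against control (left) and SS against SS+NAC (right), without the length offset (circles) and with it (squares). Filled symbols were called at an edgeR adjusted p of at most 0.05. Most circles lie right of 0, and with the offset the median moves from 0.38 to 0.07 (left) and from 0.45 to 0.12 (right), while the squares of PSMA5, PSMB2, PSMF1 and PSMD11 are filled on both sides.

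With the deposited lengths, the members called higher after the length offset were long. Of the 48 tested members, 35 were shorter than 2000 bases and 13 were not. Among the 35 shorter members, 33 were called higher in SS than in control without the offset and 0 with it. In the 2 shortest of the 8 classes of length, which hold these 35 members, 69.3% and 40.3% of all genes were called higher without the offset. Of the 35, 1, PSMC6, was called lower with it. Of the 13 longer members, 4 were called higher without the offset (PSMA5, PSMB2, PSMD9 and PSMF1) and 4 with it (PSMA5, PSMB2, PSMD11 and PSMF1). In the longer classes, the share of all genes called higher without the offset lay between 1.54% and 19.4%. With the offset it was 4.21% over all tested genes. Across the 48 members, Spearman's rho of length with log2 fold change was -0.75 in SS against control and 0.34 with the offset, beside -0.68 and 0.00 across 14004 genes with a length. In SS against SS+NAC it was -0.71 and 0.61 with the offset across members, beside -0.64 and 0.02 across genes. These values describe genes within the same libraries, which are not independent replicates. The lengths come from the deposited values and stand for the transcripts that the authors' counting used. With the median length of coding transcripts in GENCODE release 29 in their place, a choice made after the data were seen, PSMA5 counts as 2617 and PSMB2 as 3459 bases. Then 7 members were called higher (all genes 6.70%) and 2 lower, PSMC6 and PSMD5 (all genes 9.89%), in SS against control. The same 4 members were among the 7, with 0.43 ± 0.07 (SE, edgeR adjusted p = 0.00312) for PSMA5 and 0.46 ± 0.09 (SE, edgeR adjusted p = 0.00927) for PSMB2. The other 3 were PSMD9, PSMB10 and PSMC1, of which PSMB10 and PSMC1 have deposited lengths under 2000 bases. Against SS+NAC, GENCODE lengths gave 16 members higher, 33.3% of those tested (all genes 10.95%), and 10 of the 16 have deposited lengths under 2000 bases. Only 4 of the 6 members called against SS+NAC with the deposited lengths were among these 16, without PSMD11 and PSMD12, so the counts with an offset depend on which lengths are used.

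**Figure D4:**
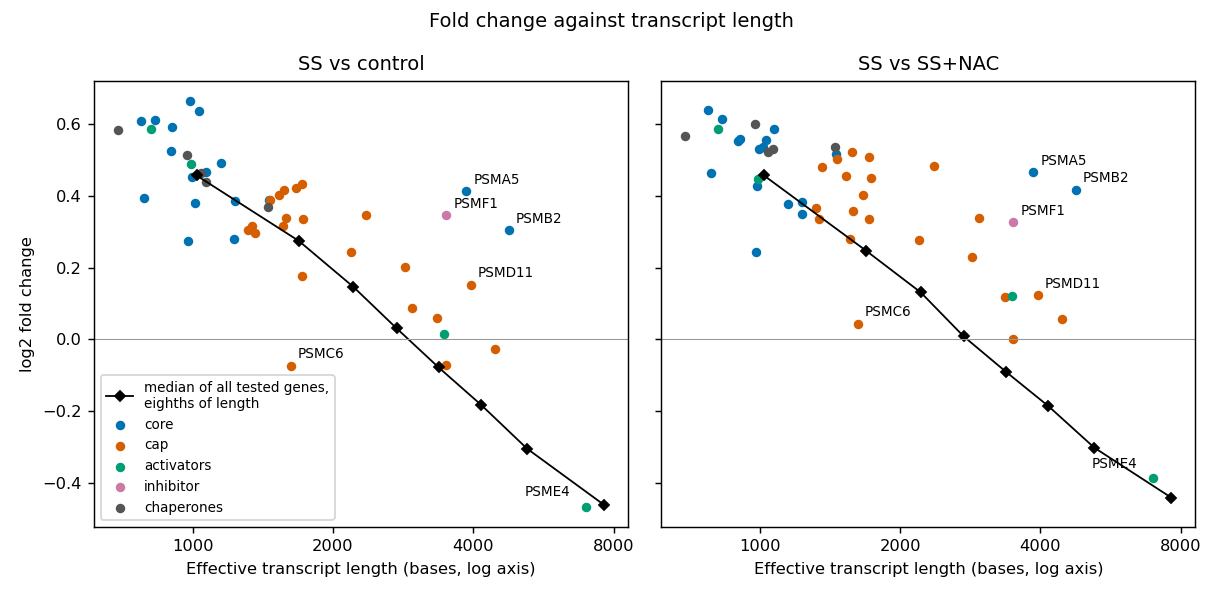
Log2 fold change of the 48 tested members (points, coloured by class) against effective transcript length in bases (log axis), in SS against control (left) and SS against SS+NAC (right). The black line joins the medians of all tested genes in 8 classes of length, which fall from 0.46 to -0.46 on the left. PSMA5, PSMB2, PSMF1 and PSMD11 lie above the line, PSMC6 lies below it on both sides, and PSME4 is close to it.

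Levels per length were spread widely among subunits that occur in equal numbers in the particle. Over the 14 constitutive core subunits, FPKM in the first control library ran from 24.6 for PSMA5 to 324 for PSMA7, a ratio of 13.2, with a median of 132 FPKM. That ratio was 12.8 in the other control library, 11.4 and 13.9 for SS and 13.6 and 10.6 for SS+NAC, and PSMA5 was the lowest and PSMA7 the highest in all 6. The groups overlapped in this ratio. Its low end depends on the deposited length of PSMA5, 3860 bases, where the longest coding transcript of the gene in GENCODE has 3729 bases. Not divided by length, PSMA5 had a mean of 96.6 CPM in control, beside 96.5 for PSMA2, 100.3 for PSMB6 and 329 for PSMA7. The 18 subunits of the cap ranged in control from 21.5 and 19.9 FPKM for PSMD12 to 236 and 252 FPKM for PSMD2. Among activators, PSME2 had the highest level, 126 ± 0.474 FPKM (SD, n = 2) in control and 177 ± 2.62 FPKM (SD, n = 2) in SS, and PSME4 the lowest, 10.8 ± 0.127 FPKM (SD, n = 2) and 7.46 ± 0.0707 FPKM (SD, n = 2). PSMF1 stood at 92.3 ± 1.63 FPKM (SD, n = 2) in control and PSME1 at 95.7 ± 1.04 FPKM (SD, n = 2). Summed over the 17 tested core genes, FPKM was 2117 and 2159 in control, 2652 and 2852 in SS and 2164 and 2103 in SS+NAC. For the 21 cap genes the sums were 1889.8 and 1944 in control, 2121 and 2282 in SS and 1922 and 1768 in SS+NAC.

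**Figure D5:**
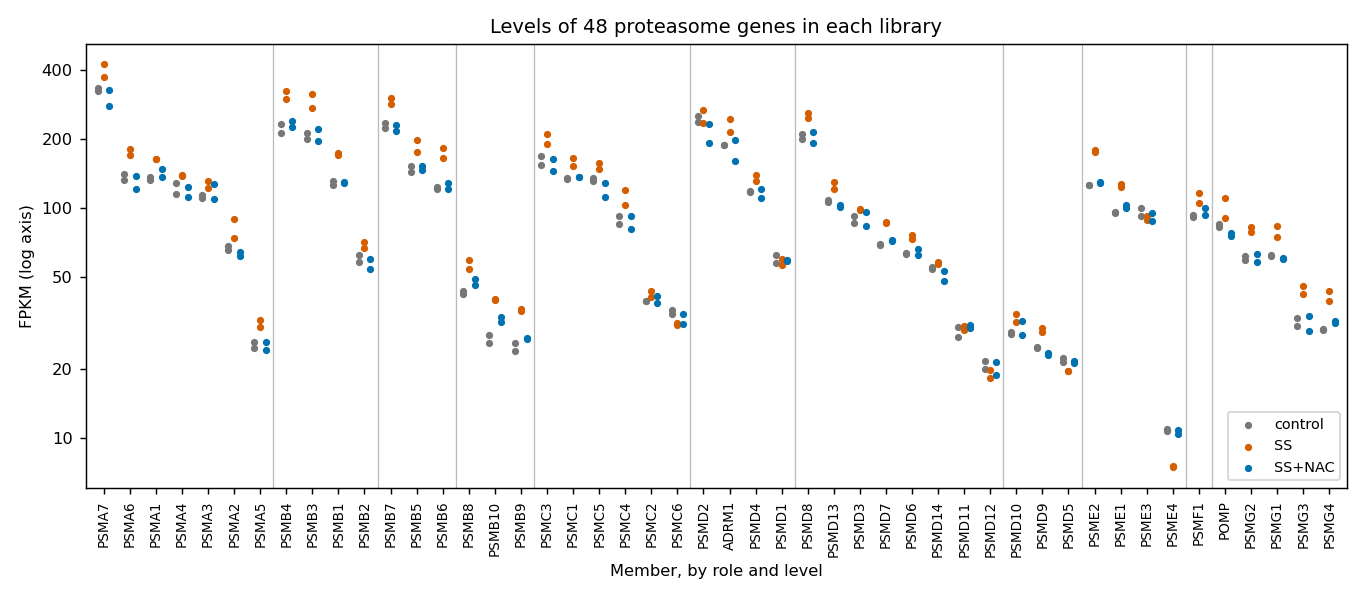
FPKM of each tested member in each library (log axis), by role and by mean level within the role, with 2 points for each of control, SS and SS+NAC. Of the 14 constitutive core subunits PSMA7 is the highest and PSMA5 the lowest. The SS points lie above the others for most genes, though not for PSMC6, PSMD12 or PSME4, among others.

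Genes around the proteasome were taken from further lists. The first holds 13 genes of NRF1 and NRF2 control, of which 1 was called higher (all genes 18.6%) and 5 lower (all genes 21.4%) in SS than in control, and 1 higher (all genes 19.6%) and 7 lower (all genes 23.1%) than in SS+NAC. NFE2L1, the gene of NRF1, had 259 and 269 CPM in control cells, 205 and 201 CPM after SS, and 314 and 313 CPM after SS with NAC. It was lowest in the SS libraries and highest in SS+NAC, and was lower in SS, at -0.38 ± 0.07 (SE, edgeR adjusted p = 0.00218) against control and -0.63 ± 0.07 (SE, edgeR adjusted p = 0.000258) against SS+NAC. With the offset the first of these was not called, at -0.13 ± 0.06 (SE, edgeR adjusted p = 0.239), and the other was, at -0.38 ± 0.06 (SE, edgeR adjusted p = 0.00473). NFE2L2, the gene of NRF2, had 96.5 and 92.5 CPM in control, 80.6 and 80.8 CPM in SS and 95.4 and 113 CPM in SS+NAC libraries, with both SS libraries below the rest. It missed the limit against control, at -0.23 ± 0.09 (SE, edgeR adjusted p = 0.0621), and was lower in SS than in SS+NAC, at -0.37 ± 0.09 (SE, edgeR adjusted p = 0.00692). MAFF, a small MAF partner of both factors, had 58.2 and 58.3 CPM in control, 84.2 and 79.6 CPM in SS and 71.4 and 67.9 CPM in SS+NAC libraries. Its SS libraries were the highest, and it was the gene called higher, at 0.49 ± 0.07 (SE, edgeR adjusted p = 0.000715). DDI2, the protease that activates NRF1, was scarce, with 8.23 and 6.65 CPM in control, 3.62 and 2.47 CPM in SS and 5.22 and 6.02 CPM in SS+NAC libraries. The SS libraries were the lowest and its log2 fold change was -1.28 ± 0.20 (SE, edgeR adjusted p = 0.000993), and -1.31 ± 0.20 (SE, edgeR adjusted p = 0.00485) with the offset. With the GENCODE length of 10625 bases in place of 2697 bases the offset value was -0.76 ± 0.20 (SE, edgeR adjusted p = 0.0265). DDI2 shares exon sequence with RSC1A1, which makes its counts uncertain. MAFG, named after its values were seen, was called in SS+NAC against control, at 0.60 ± 0.07 (SE, edgeR adjusted p = 0.00204). After the length offset 2 genes of the list, VCP and MAFF, were called higher in SS than in control (all genes 4.21%) and 2, DDI2 and SEL1L, lower (all genes 5.03%). With GENCODE lengths MAFK was called higher than in control as well (all genes 6.70%).

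The list of proteasome-associated proteins has 18 genes. Against control, 8 of them rose in SS (all genes 18.6%) and 5 fell (all genes 21.4%), and against SS+NAC the calls were 5 higher (all genes 19.6%) and 4 lower (all genes 23.1%). AKIRIN2, which carries proteasomes into the nucleus, had 39.9 and 41.9 CPM in control, 48.7 and 55.3 CPM in SS and 47.3 and 42.00 CPM in SS+NAC libraries, and it was the highest of those called, at 0.35 ± 0.09 (SE, edgeR adjusted p = 0.0131). The ubiquitin ligase UBE3C, which extends chains on the proteasome, had 175 and 179.5 CPM in control, 127 and 122 CPM in SS and 157 and 149.9 CPM in SS+NAC libraries. It was lowest in SS and fell the most of the list, with -0.51 ± 0.07 (SE, edgeR adjusted p = 0.000576). SEM1, a small cap subunit whose symbol the naming rule does not catch, had 63.3 and 56.99 CPM in control, 72.5 and 73.1 CPM in SS and 59.2 and 61.5 CPM in SS+NAC libraries. SS was higher than the other groups, by 0.28 ± 0.08 (SE, edgeR adjusted p = 0.0164) against control, but with a transcript of 479 bases the sign turned with the length offset, to -0.31 ± 0.10 (SE, edgeR adjusted p = 0.0828) against control and -0.38 ± 0.10 (SE, edgeR adjusted p = 0.0299) against SS+NAC. With GENCODE lengths SEM1 was not called against SS+NAC, at -0.14 ± 0.08 (SE, edgeR adjusted p = 0.23). With the offset, 1 gene of this list was called higher in SS than in control, ZFAND5 (all genes 4.21%), and 1 lower, UCHL5 (all genes 5.03%). Against SS+NAC 0 were higher with the offset (all genes 7.03%) and 2 lower, SEM1 and UCHL5 (all genes 7.43%). With GENCODE lengths ZFAND5 was not called against control, at -0.01 ± 0.07 (SE, edgeR adjusted p = 0.964), while TXNL1 and UBQLN2 were higher, by 0.58 ± 0.07 (SE, edgeR adjusted p = 0.000742) and 0.34 ± 0.07 (SE, edgeR adjusted p = 0.0105). USP14, UBE3C and UCHL5 were then lower, at -0.35 ± 0.07 (SE, edgeR adjusted p = 0.00608), -0.64 ± 0.07 (SE, edgeR adjusted p = 0.000455) and -0.48 ± 0.09 (SE, edgeR adjusted p = 0.00537). Of all genes, 6.70% were called higher and 9.89% lower in that fit. TXNL1 counts as 4116.5 bases in GENCODE and as 1316 bases in the deposited values. For USP14, UBE3C and UCHL5 GENCODE gives 1985.5, 1866 and 1534 bases in place of 4193, 5062 and 2587. With the deposited lengths the offset values were -0.004 for TXNL1, 0.20 for UBQLN2, -0.05 for USP14, -0.22 for UBE3C and -0.33 for UCHL5. Of these, UCHL5 alone was called. Without an offset TXNL1 was called higher, at 0.35.

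Of genes that supply ubiquitin, UBB, a polyubiquitin gene, had 703 and 714 CPM in control cells, 1003 and 1087 CPM after SS, and 725 and 680.3 CPM after SS with NAC. Its SS libraries exceeded the other 4, with 0.56 ± 0.08 (SE, edgeR adjusted p = 0.000603) against control and 0.11 with the offset. With GENCODE lengths UBB was called in both comparisons, at 0.22 ± 0.06 (SE, edgeR adjusted p = 0.0389) against control and 0.24 ± 0.06 (SE, edgeR adjusted p = 0.0217) against SS+NAC. UBA6, an activating enzyme for ubiquitin, had 52.4 and 44.5 CPM in control, 32.9 and 31.1 CPM in SS and 37.7 and 47.3 CPM in SS+NAC libraries and was lower in SS, at -0.60 ± 0.12 (SE, edgeR adjusted p = 0.00285), with both SS libraries below the rest. That call was lost with the offset, at -0.20 ± 0.11 (SE, edgeR adjusted p = 0.287), and with GENCODE lengths, at -0.24 ± 0.11 (SE, edgeR adjusted p = 0.156). Of 8 adaptors of the unfoldase VCP, 3 were called higher and 2 lower in each of the comparisons of SS (all genes 18.6% and 21.4% against control, 19.6% and 23.1% against SS+NAC). UFD1 had 111 and 115 CPM in control, 154 and 171 CPM in SS and 120.3 and 107 CPM in SS+NAC libraries, and rose by 0.52 ± 0.09 (SE, edgeR adjusted p = 0.00113), and UBXN7, with a transcript of 10134 bases, had 33.5 and 31.2 CPM in control, 21.3 and 20.1 CPM in SS and 31.7 and 34.4 CPM in SS+NAC libraries and fell, with -0.64 ± 0.09 (SE, edgeR adjusted p = 0.000504). In both genes SS did not overlap the other groups. With the offset, NSFL1C was called higher in SS than in control (all genes 4.21%) and no adaptor was lower (all genes 5.03%). With GENCODE lengths UFD1 and NSFL1C were higher, by 0.28 ± 0.08 (SE, edgeR adjusted p = 0.0323) and 0.42 ± 0.08 (SE, edgeR adjusted p = 0.00718), and NPLOC4 and UBXN7 lower, at -0.53 ± 0.08 (SE, edgeR adjusted p = 0.00164) and -0.28 ± 0.08 (SE, edgeR adjusted p = 0.0452). In that fit 6.70% of all genes were called higher and 9.89% lower. NPLOC4 counts as 946 bases in GENCODE and as 4591 bases in the deposited values. It was not called against control without an offset, at -0.17 ± 0.09 (SE, edgeR adjusted p = 0.144). With the deposited length in the offset it was not called either, at 0.07 ± 0.09 (SE, edgeR adjusted p = 0.687).

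Several members share exon sequence with neighbours. By GENCODE release 29 on GRCh38, 18 of the 49 members overlap an exon of another annotated gene, 13 of them on the opposite strand, among them PSMB8, PSMC1, PSMC5, PSMD13, PSME1, PSME2 and PSME4. The use of strand in the counting is not given in the sources used here, so reads of such pairs cannot be told apart. For 37 of the 49 members the expected counts were within 0.005 of a whole number in every library, and for 12 they were not in at least 1 library. The lowest count of a tested member in a library was 385, and the biological coefficient of variation over all tested genes was 6.74%.

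These results rest on 2 libraries a group and on RNA alone. They do not show whether proteasome protein, assembled particles or peptidase activity changed, and the dose and the time of exposure are not known from the labels. The dependence of fold change on transcript length was large, its source was not tested, and the offset that removes it would also remove a real change shared by short transcripts. The count of members that edgeR called higher in SS than in control was 37 (all genes 18.6%), or 4 with the length offset (all genes 4.21%), or 7 with GENCODE lengths in it (all genes 6.70%). With a Bonferroni correction it was 0 (all genes 0.0928%), beside 41 members at an unadjusted edgeR p under 0.05 in either direction (all genes 48.8%). Both SS comparisons share the same SS libraries, and leaving out 1 library altered several counts.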

How the data were processed

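RNA of 6 KHM-5M libraries (3 groups of 2) was read from 1 deposited table of 17687 genes. Per the submitters' processing notes, the authors mapped reads with HISAT2 2.0.4, used Bowtie2 2.2.5 and RSEM 1.2.12, and deposited RSEM expected counts, not normalized. The authors also deposited FPKM, made with RSEM per kilobase of effective length and by depth. The deposited TPM values were scaled by the authors to the same sum in every library. The table's columns of comparisons, which hold log2 fold changes with DESeq2 p- and q-values, and 9 columns of group means were not used.

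Counts were rounded to whole numbers and tested with edgeR 4.0.16 in R 4.3.3 (filterByExpr, TMM factors of 1.02, 1.004, 0.977, 0.9198, 1.02 and 1.065 in the order control, SS, SS+NAC, 1 quasi-likelihood fit of 6 libraries on group, Benjamini-Hochberg over 14005 tested genes, limit 0.05), and the code was tested on simulated data first. Depth was 17645545 to 23810056 expected counts a library, and the lowest count of a tested member was 385. The 2 libraries of a group differed by more than counting error, with a chi-square per degree of freedom of 3.16 in control, 7.465 in SS and 12.37 in SS+NAC. CPM (counts scaled by depth and TMM factor) served within genes, and FPKM served between genes. Ratios of subunits were also made from TPM, and for the length offset the deviation of log2 CPM from each gene's mean was smoothed on log2 effective length (lowess, span 0.3). Alternatives were DESeq2 1.42.0, other filters, a replicate block, Bonferroni adjustment and left-out libraries. GENCODE lengths, the leave-outs with the length offset and a crossed block were chosen after seeing the data.

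Members and lists were chosen with earlier results of these data known. Values are printed for all catalytic subunits and activators, for the highest and lowest fold change in SS against control of each role, for the highest FPKM of each class, for members called lower or called with the length offset, for the called extremes of each list, and for SEM1, NFE2L1 and NFE2L2. Other genes were named after their values were seen. Some planned results of lists are not reported here. Proteins of catalytic subunits were translated from principal transcripts of GENCODE release 29 and aligned globally with Biopython 1.88 (BLOSUM62).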

Additional observations from a re-analysis of the deposited data

How the results depend on the processing

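With the replicate block, with only the compared libraries in the fit, with stricter or no filtering of low counts, and with DESeq2 in place of edgeR for scaling or for the test, the counts of members called in each comparison stayed within 1.5 times those of the report. With the length offset, 4 members were called higher in SS than in control and 6 higher in SS than in SS+NAC, with medians of the log2 fold change of 0.0741 and 0.122 and 0 called lower against SS+NAC. With the length offset and the replicate block together these were 3 and 4 members (all genes 2.74% and 4.16%), medians of 0.0751 and 0.1216 and 0 called lower (all genes 5.41%). With GENCODE lengths the offset gave 7 higher and 2 lower against control and 16 higher against SS+NAC, and medians of 0.163 and 0.213. Under the Bonferroni adjustment 0 members were called higher or lower in any comparison, since its limit is far stricter. Leaving out each library in turn, with a lone library assumed to vary like the other groups, gave 19 to 39 members higher in SS than in control (all genes 8.99% to 22.4%, median 0.247 to 0.454) and 28 to 39 higher than in SS+NAC (all genes 9.65% to 21.2%, median 0.351 to 0.5101), and 0 to 2 lower in SS+NAC than in control (all genes 0.157% to 3.66%, median -0.0930 to 0.00291). With the length offset the same leave-outs gave 1 to 7 higher (all genes 0.7497% to 8.38%) and 0 to 1 lower for SS against control, 2 to 17 higher (all genes 1.09% to 14.2%) and 0 to 2 lower for SS against SS+NAC, and 0 to 4 lower for SS+NAC against control. Some log2 fold changes turned sign. For SS against control the values with the length offset, then with the replicate block added, were -0.0958 and -0.0960 for PSMB5, -0.166 and -0.167 for PSMA3, 0.202 and 0.2018 for PSMD12, 0.0334 and 0.0333 for PSMD5, -0.0517 and -0.0515 for PSMA7 and -0.309 and -0.3095 for SEM1. With GENCODE lengths they were -0.0957 for PSMA3, 0.124 for PSMD12 and -0.127 for SEM1, and PSMD12 stood at 0.00407 with at least 10 counts in every library. For SS against SS+NAC the same pairs of values were -0.0459 and -0.0472 for PSMB5, -0.0103 and -0.0111 for PSMB8, -0.0112 and -0.0114 for PSMB10, 0.0216 and 0.0220 for PSME4, -0.204 and -0.202 for PSMA3, -0.209 and -0.2086 for PSMC6, and -0.376 and -0.3796 for SEM1. With GENCODE lengths they were 0.0165 for PSME4, -0.125 for PSMA3, -0.133 for PSMC6, -0.189 for PSMD5 and -0.143 for SEM1, and PSMD5 stood at -0.0043 without a filter on low counts. Leaving out libraries without the offset spread SS against control from -0.0589 to 0.117 for PSME3, -0.0311 to 0.158 for PSMD1, -0.0461 to 0.0166 for PSMD12 and -0.0501 to 0.212 for PSMD2, and SS against SS+NAC from -0.0135 to 0.0999 for PSMC6, -0.00455 to 0.122 for PSMD12 and -0.0485 to 0.0478 for PSMD5. The cause of these changes was not tested. The replicate block gave 35 members higher and 1 lower in SS than in control (all genes 15.7% and 19.0146%), 37 and 1 against SS+NAC (all genes 16.4% and 20.3%), and 0 and 0 for SS+NAC against control. The labels share only a replicate number, and deviations of same-numbered libraries correlated at 0.113 (control and SS), -0.105 (control and SS+NAC) and -0.175 (SS and SS+NAC). With the SS+NAC numbers crossed, the block called 41 members higher and 1 lower in SS than in control (all genes 24.6% and 26.5%), 41 and 1 against SS+NAC (all genes 24.2% and 27.8%), and 0 higher and 1 lower in SS+NAC than in control (all genes 5.43% and 5.11%).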
